A study of Mus musculus with 12 samples.

Results

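The genes described here are 8 members of the integrated stress response, Atf4, Atf5, Ddit3, Ddit4, Sesn2, Trib3, Chac1 and Asns, taken by symbol from the 27179 genes in the count tables. They were measured by bulk RNA-seq of mouse dorsal cortex (strain C57BL/6) in 12 libraries, 3 for each of E14.5 Ash2l cKO, E14.5 WT, E16.5 Ash2l cKO and E16.5 WT embryos. The protein made from Ash2l is part of the core of COMPASS family histone methyltransferases, and the conditional knockout (cKO) was made with D6-Cre. The series asked what Ash2l does during corticogenesis. D6-Cre is driven by an enhancer of Dach1 that is active in dorsal telencephalic progenitors, so cells without Cre, such as vessels, microglia and immigrant interneurons, still carry an intact gene in a cKO cortex. The labels give the control genotype as WT and do not say whether those embryos carried the floxed allele or Cre, nor do they give separate animals or pools, so the p-values below measure the spread between these libraries.

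The integrated stress response starts when kinases that sense unfolded protein, amino acid shortage, heme shortage or double-stranded RNA phosphorylate the translation factor eIF2alpha. General translation falls, while ATF4 and ATF5 are translated more, through short reading frames upstream of their coding sequences. ATF4 then switches on genes for amino acid supply, glutathione breakdown, mTORC1 inhibition and, through CHOP and TRIB3, feedback and cell death. In the developing mouse cortex, signalling through this pathway is known to influence how progenitors make neurons. RNA levels do not show the translational step.

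Library totals ranged from 14318147 to 24719047 counts. Ash2l itself was at 46.9 to 59.9 CPM (counts scaled to a common library size) in E14.5 cKO libraries, against 118 to 143 CPM in E14.5 WT libraries, and at 54.4 to 60.6 CPM in E16.5 cKO libraries, against 129 to 135 CPM in E16.5 WT libraries. Within each group the library with the lowest first number in its title is called A, the next B and the last C. By Xist and Y-linked transcripts the 3 E14.5 cKO libraries were female and the 3 E14.5 WT libraries male, so that sex and genotype cannot be told apart at E14.5. E16.5 had both sexes in both genotypes. At E14.5 the 5 meningeal markers summed to 331 CPM in cKO A, against 10.5 to 43.0 CPM in the other 5 libraries, and the 9 ventral GABAergic markers summed to 309 CPM in WT B, against 22.6 to 125 CPM in the other 5. The 5 choroid plexus markers summed to 452 CPM in E14.5 WT A and 597 CPM in E16.5 WT C, against 8.02 to 56.7 CPM elsewhere. Markers of dorsal cortex were found in every library, with summed levels of 1376 to 1928 CPM. The lists at 0 for a marker were meningeal (Lum in E14.5 WT B), choroid plexus (Kl in E16.5 cKO C and WT B) and ventral GABAergic (Nkx2-1 and Gsx2 in E14.5 cKO A, Gsx2 in E14.5 cKO B and E16.5 WT B).

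Per kilobase of exon the genes spanned a wide range of levels, and the order was nearly the same in the 4 groups. Atf4 was highest, at 57.3 ± 2.88 CPM per kilobase in E14.5 cKO and 62.0 ± 3.68 in E14.5 WT (SD, n = 3 each), and at 48.9 ± 3.78 in E16.5 cKO and 52.5 ± 1.60 in E16.5 WT. Ddit4 followed with group means of 18.7 to 34.4 CPM per kilobase, and no library of Ddit4 reached the lowest library of Atf4. Asns had means of 10.6 to 11.9, Atf5 of 5.08 to 9.67 and Ddit3 of 6.32 to 6.50 CPM per kilobase, and neighbouring genes in this order overlapped across the 12 libraries. Sesn2 had means of 1.11 to 2.38 and Chac1 of 0.433 to 0.640 CPM per kilobase, each apart from its neighbours in every library. Trib3 was lowest, with 0.122 CPM per kilobase in its highest library and no count in 5 libraries.

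**Figure D1:**
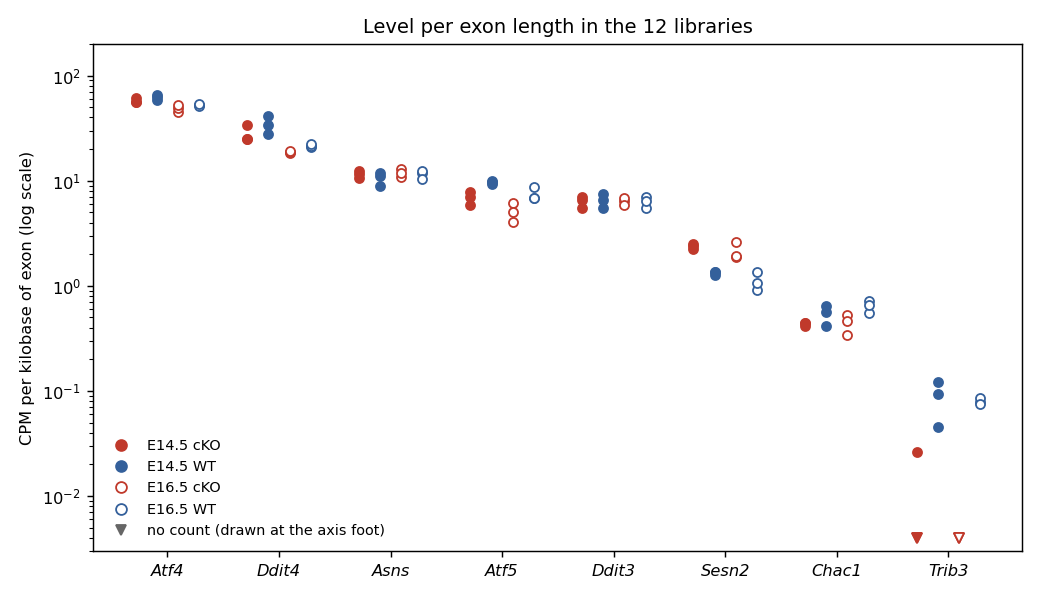
Level of each gene in CPM per kilobase of exon (log axis) in the 12 libraries, red for cKO and blue for WT, filled for E14.5 and open for E16.5, with a triangle at the foot of the axis where a library had no count. Atf4 lies at 45.2 to 65.7 and Chac1 at 0.339 to 0.711, and Trib3 has 0 in 5 of 6 cKO libraries.

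With edgeR's quasi-likelihood test and an adjusted p under 0.05 over all genes as the call, none of the 7 tested members was called at E14.5, where 297 of 14788 genes (2.01%) were, and 1 of 7 was called at E16.5, where 2358 of 14865 genes (15.9%) were. That gene was Sesn2, higher in cKO. With the title number as a block, 4790 of 14865 genes (32.2%) were called at E16.5 and 2 members among them, Sesn2 and Atf5. At E14.5 the unadjusted p was under 0.05 for 2 of the 7 members, Sesn2 and Atf5, against 2989 of 14788 genes (20.2%). DESeq2 called 1 member at E14.5, Sesn2, against 1194 of 14895 genes (8.02%). Trib3 fell below the filter on low counts. Libraries of cKO and WT did not overlap for 3 of the 8 members at E14.5 (Atf5 and Trib3 lower, Sesn2 higher in cKO), against 26.8% of all tested genes, and for 5 of 8 at E16.5 (Atf5, Ddit4, Trib3 and Chac1 lower, Sesn2 higher in cKO), against 37.5% of all tested genes. Trib3 is counted here among the members but is not among the tested genes behind these shares. Of the 7 tested members, those without overlap were Atf5 and Sesn2 at E14.5, and Atf5, Ddit4, Chac1 and Sesn2 at E16.5. In bulk RNA, fewer cells of a type and less RNA per cell cannot be told apart.

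**Figure D2:**
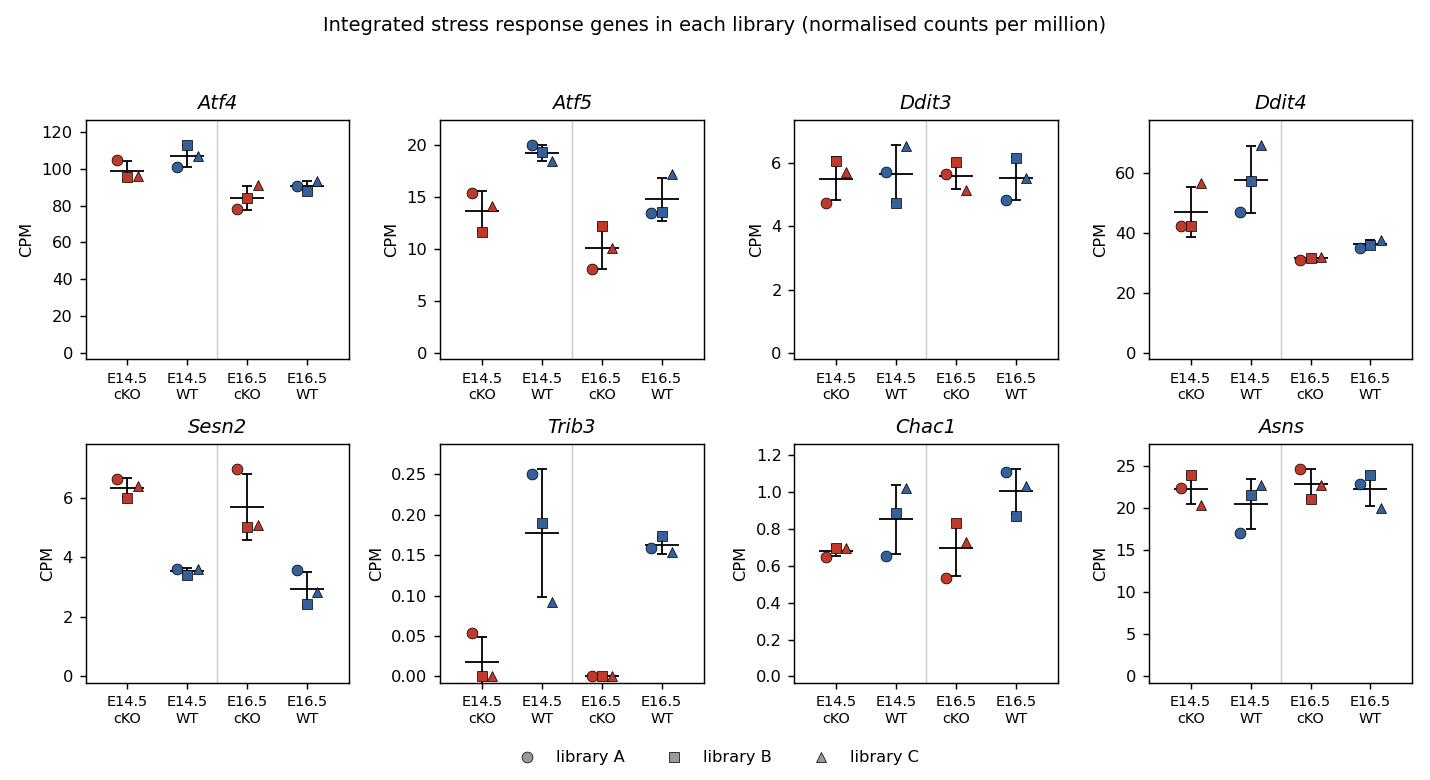
CPM of the 8 genes in each library, in panels with axes from 0; circles, squares and triangles are libraries A, B and C, and the bars give the mean and SD of 3. Sesn2 lies at 5.03 to 6.97 CPM in cKO and at 2.44 to 3.60 CPM in WT over both ages, while Ddit3 and Asns overlap between genotypes.

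Atf4, the transcription factor at the centre of the response, lies at chr15:80255184-80257541 (mm10, plus strand). At E14.5 it was at 105, 95.8 and 96.1 CPM in cKO A, B and C, against 101, 113 and 107 CPM in WT A, B and C. At E16.5 it was at 78.0, 84.1 and 91.0 CPM in cKO, against 90.5, 87.8 and 93.3 CPM in WT. The genotypes overlapped at both ages, and the lowest library at each age was a cKO library. Its log2 fold change was -0.10 at E14.5 (SE 0.0923, 95% interval -0.32 to 0.11, edgeR adjusted p = 0.572) and -0.11 at E16.5 (SE 0.0746, interval -0.28 to 0.06, adjusted p = 0.363). It was among the most deeply counted of the 8, with 1375 to 2341 counts a library.

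Atf5 encodes a related bZIP factor that, like ATF4, is translated more under stress, and it is known in rodent cortex for holding neural progenitors back from differentiation. It lies at chr7:44812256-44816658 (minus strand). At E14.5 it was at 15.4, 11.6 and 14.1 CPM in cKO A, B and C, against 20.0, 19.3 and 18.5 CPM in WT. At E16.5 it was at 8.08, 12.2 and 10.1 CPM in cKO, against 13.5, 13.6 and 17.2 CPM in WT. Every cKO library was below every WT library of its age. The log2 fold change was -0.48 at E14.5 (SE 0.138, interval -0.80 to -0.15, edgeR adjusted p = 0.120) and -0.56 at E16.5 (SE 0.179, interval -0.97 to -0.14, adjusted p = 0.0733), so neither age passed in this test. In the authors' deposited table, which gives WT over KO, Atf5 was at 0.44 (adjusted p = 0.058624417) at E14.5 and 0.5 (adjusted p = 0.038753773) at E16.5. With the title number as a block the E16.5 value stayed at -0.56 and passed (edgeR adjusted p = 0.0142).

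Ddit3 encodes CHOP, the bZIP factor tied to cell death under prolonged stress (chr10:127290793-127296288, plus strand). It was at 4.74, 6.06 and 5.70 CPM in E14.5 cKO A, B and C, against 5.70, 4.74 and 6.55 CPM in E14.5 WT. In E16.5 cKO libraries it was at 5.64, 6.02 and 5.15 CPM, against 4.83, 6.16 and 5.54 CPM in E16.5 WT libraries. The genotypes overlapped almost fully at both ages. The log2 fold changes were -0.04 (SE 0.200, interval -0.50 to 0.43, edgeR adjusted p = 0.936) at E14.5 and 0.02 (interval -0.36 to 0.40, adjusted p = 0.951) at E16.5, and both intervals leave room for a moderate change either way. Of 10 genes on a list of bZIP factors, possible dimer partners of CHOP among them, 6 were tested at each age and none was called, with a median log2 fold change of -0.23 at E14.5 and -0.08 at E16.5, against 0.03 and 0.02 over all genes tested. Nfe2l2, the antioxidant regulator NRF2, had -0.72 (edgeR adjusted p = 0.102) at E14.5 and -0.38 (adjusted p = 0.270) at E16.5. It was called lower in the mean of both ages (-0.55, SE 0.145, edgeR adjusted p = 0.0158). That mean was added after the single ages had been seen, and it called 4127 of 15338 genes (26.9%).

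Ddit4 and Sesn2 both encode inhibitors of mTORC1, the kinase complex that couples nutrients to growth. Ddit4 (REDD1, chr10:59949675-59951770, minus strand) acts through the TSC complex and is also induced by hypoxia and glucocorticoids. At E14.5 it was at 42.5, 42.3 and 56.9 CPM in cKO A, B and C, against 47.0, 57.3 and 69.5 CPM in WT. At E16.5 it was at 31.0, 31.7 and 32.0 CPM in cKO, against 34.9, 36.2 and 37.7 CPM in WT. Genotypes overlapped at E14.5 and were apart at E16.5, where the 3 cKO libraries lay close together. The log2 fold change was -0.28 (SE 0.177, interval -0.70 to 0.13, edgeR adjusted p = 0.415) at E14.5 and -0.21 (SE 0.0765, interval -0.38 to -0.03, adjusted p = 0.106) at E16.5, which did not pass.

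Sesn2 encodes sestrin 2, a leucine sensor that binds the GATOR2 complex, and p53 is known to induce it as well as ATF4. It lies at chr4:132492804-132510456 (minus strand). At E14.5 it was at 6.62, 5.99 and 6.40 CPM in cKO A, B and C, against 3.60, 3.41 and 3.60 CPM in WT. At E16.5 it was at 6.97, 5.03 and 5.08 CPM in cKO, against 3.56, 2.44 and 2.82 CPM in WT. All 6 cKO libraries were above all 6 WT libraries. The log2 fold change was 0.85 at E14.5 (SE 0.178, interval 0.44 to 1.27, edgeR adjusted p = 0.0593) and 0.95 at E16.5 (SE 0.225, interval 0.43 to 1.47, adjusted p = 0.0275). These rest on 42 to 156 counts a library.

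The E16.5 call for Sesn2 was lost without WT B (0.83, edgeR adjusted p = 0.105), without cKO B (1.03, adjusted p = 0.0667), without WT C (0.92, adjusted p = 0.0754) and with embryo sex as a term (0.95, adjusted p = 0.0527), each time with a log2 fold change above 0.8. The E14.5 value did not pass without cKO A and WT B together (0.78, edgeR adjusted p = 0.0900) or with embryo sex as a term in 12 libraries (0.75, adjusted p = 0.278). That sex term came from the E16.5 libraries alone, since sex and genotype coincide at E14.5. In the authors' deposited table, which gives WT over KO, Sesn2 was at -0.74 (adjusted p = 0.004734109) at E14.5 and -0.76 (adjusted p = 0.006185287) at E16.5, the same direction. Beside Sesn2 and Atf5, the 6 neuron markers summed to 2137 to 3751 CPM in E14.5 cKO and 3621 to 4917 CPM in E14.5 WT, and to 3702 to 4302 CPM in E16.5 cKO and 5094 to 5409 CPM in E16.5 WT. The 6 apical progenitor markers summed to 1780 to 1877 CPM in E14.5 cKO and 1593 to 1665 CPM in E14.5 WT, and to 1352 to 1761 CPM in E16.5 cKO and 1197 to 1501 CPM in E16.5 WT. Of the 6 apical progenitor markers 4 had a log2 fold change above 0 at E14.5 and 5 at E16.5. Slc1a3 was below 0 at both ages (-0.47 and -0.32). The neuron sums overlapped between genotypes at E14.5, and the apical progenitor sums did so at E16.5. Any part of these marker differences in the Sesn2 and Atf5 values was not tested.

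**Figure D3:**
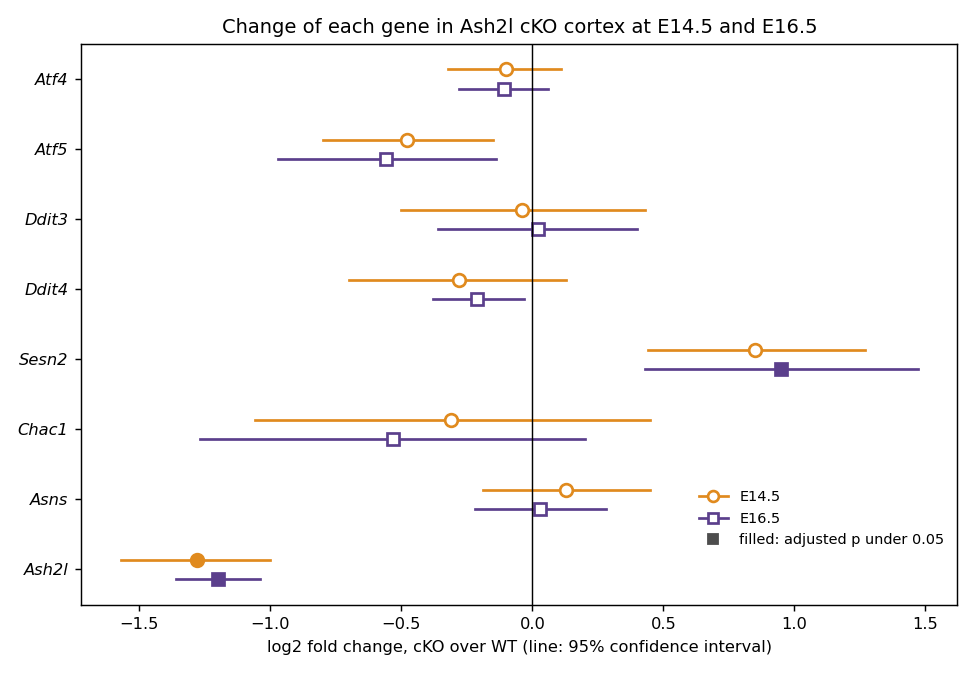
Log2 fold change of each tested gene in cKO over WT at E14.5 (circles) and E16.5 (squares) with its 95% confidence interval, filled where the edgeR adjusted p was under 0.05, with Ash2l for scale. Sesn2 is at 0.85 and 0.95, Atf5 at -0.48 and -0.56, and Ash2l at -1.28 and -1.20.

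None of the 6 paralogs on the list was called higher in cKO at either age. Of all tested genes 2.01% were called in either direction at E14.5 and 15.9% at E16.5. Sesn1, another sestrin, averaged 52.0 ± 8.99 CPM in E14.5 cKO and 65.5 ± 0.335 CPM in E14.5 WT (SD, n = 3 each), with a log2 fold change of -0.33 (edgeR adjusted p = 0.220), and at E16.5 its log2 fold change was -0.07 (adjusted p = 0.518). Sesn3 had 0.09 (adjusted p = 0.764) at E14.5 and 0.10 (adjusted p = 0.693) at E16.5. The 1 call among the paralogs was Ddit4l (REDD2) at E14.5, which averaged 1.26 ± 0.195 CPM in cKO and 4.36 ± 0.658 CPM in WT and fell by 1.79 on the log2 scale (edgeR adjusted p = 0.0258). At E16.5 Ddit4l averaged 3.38 ± 1.82 CPM in cKO and 3.07 ± 0.684 CPM in WT (0.13, edgeR adjusted p = 0.842). No difference between genes was tested.

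Of the 16 mTORC1 inputs and outputs on the list, 15 were tested at E14.5 with no call and a median log2 fold change of 0.01. All 16 were tested at E16.5, where 1 rose, Depdc5 of the GATOR1 complex (0.27, SE 0.0585, edgeR adjusted p = 0.0201), with a median of 0.09. The 12 genes of the p53 target list, p53 being another known inducer of Sesn2, had no call at E14.5 and a median of 0.10. At E16.5 Eda2r (1.34, SE 0.243, edgeR adjusted p = 0.0103) and the cyclin G gene Ccng1 (0.55, SE 0.116, adjusted p = 0.0188) rose and the kinase gene Plk2 fell (-0.80, SE 0.173, adjusted p = 0.0204), with a median of 0.39 over the 12. Of all tested genes 2.01% were called at E14.5 and 15.9% at E16.5, with medians of 0.03 and 0.02. Any part of p53 or of mTORC1 genes in the Sesn2 values was not tested.

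Trib3 encodes a pseudokinase that is induced by ATF4 and CHOP and feeds back on them (chr2:152337425-152344060, minus strand). It was hardly expressed. Its raw counts were 1, 0 and 0 in E14.5 cKO A, B and C, against 5, 3 and 2 in E14.5 WT, and 0, 0 and 0 in E16.5 cKO, against 3, 3 and 3 in E16.5 WT. Each WT library had more counts than each cKO library of its age. Summed over the group, E14.5 cKO held 1 count and E14.5 WT 10, a CPM ratio of 0.100 with an exact 95% counting interval of 0.00231 to 0.705. E16.5 cKO held 0 and E16.5 WT 9. With 3 counts over the group taken as the limit of a count of 0, the WT level was 2.87-fold above that limit. This takes the 9 WT counts as exact, so it is not a bound like the E14.5 interval.

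Over both ages Trib3 had 1 count in cKO and 19 in WT, a ratio of 0.0538 (interval 0.00130 to 0.339). An exact permutation test of its CPM within ages, two-sided, gave p = 0.00500, the smallest that the 400 relabellings allow. This test was chosen after the counts had been seen. With each WT library above each cKO library of its age, no other p was possible. It restates that separation and adds nothing to it. Counting intervals cover counting error only, and 19 counts are few. Without the filter on low counts, edgeR gave an adjusted p of 0.262 at E14.5 and 0.0863 at E16.5. The related genes Trib1 and Trib2 had log2 fold changes of -0.32 and -0.30 at E14.5 (edgeR adjusted p = 0.269 and 0.336) and of -0.09 and -0.31 at E16.5 (adjusted p = 0.742 and 0.0838).

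Chac1, which encodes an enzyme that breaks down glutathione, was also low (chr2:119351242-119354326, plus strand). It was at 0.646, 0.697 and 0.698 CPM in E14.5 cKO A, B and C, against 0.650, 0.885 and 1.02 CPM in E14.5 WT, and at 0.532, 0.830 and 0.726 CPM in E16.5 cKO, against 1.11, 0.871 and 1.03 CPM in E16.5 WT. Genotypes overlapped at E14.5 and were apart at E16.5 by a small gap. The summed counts were 39 in E14.5 cKO and 49 in E14.5 WT, and 37 in E16.5 cKO and 56 in E16.5 WT. The log2 fold change was -0.31 (interval -1.06 to 0.45, edgeR adjusted p = 0.634) at E14.5 and -0.53 (interval -1.27 to 0.20, adjusted p = 0.293) at E16.5, so no difference was called at either age. Both intervals are wide.

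Asns encodes asparagine synthetase, a textbook target of ATF4 under amino acid shortage (chr6:7675171-7693182, minus strand). At E14.5 it was at 22.4, 24.0 and 20.4 CPM in cKO A, B and C, against 17.1, 21.6 and 22.8 CPM in WT. At E16.5 it was at 24.7, 21.1 and 22.8 CPM in cKO, against 22.9, 23.9 and 20.0 CPM in WT. The genotypes overlapped at both ages and the lowest library was a WT library each time. Log2 fold changes were 0.13 (SE 0.138, interval -0.19 to 0.45, edgeR adjusted p = 0.633) at E14.5 and 0.03 (interval -0.22 to 0.28, adjusted p = 0.882) at E16.5.

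ATF4 binds with C/EBP partners to an element spelled TGATGNAA, where N is any base. RefSeq start sites were found for all 8 genes (GRCm38.p6, the assembly behind mm10), with a second start for Atf5, and windows of 250 bases before to 50 bases after the start were searched on both strands. Matches were found for Asns, Chac1 and Trib3, the last as TTACATCA with its first base at position 15 inside the transcript. Of all 32851 windows, 3.97% held TGATGNAA. The stretches below are shown because they hold the matches of Asns and Chac1, in capitals, or belong to Sesn2 and Trib3, the genes furthest apart between genotypes by fold, whose stretches hold none and stand in lower case.
Asns, chr6:7693210-7693309, minus strand: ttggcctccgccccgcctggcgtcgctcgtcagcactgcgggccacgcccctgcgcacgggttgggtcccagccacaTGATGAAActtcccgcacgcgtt
Chac1, chr2:119351003-119351102, plus strand, match on the opposite strand: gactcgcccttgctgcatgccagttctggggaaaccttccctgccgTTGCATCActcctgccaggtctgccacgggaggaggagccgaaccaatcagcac
Sesn2, chr4:132510457-132510556, minus strand: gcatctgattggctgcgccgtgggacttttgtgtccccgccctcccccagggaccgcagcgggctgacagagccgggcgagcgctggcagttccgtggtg
Trib3, chr2:152344061-152344160, minus strand: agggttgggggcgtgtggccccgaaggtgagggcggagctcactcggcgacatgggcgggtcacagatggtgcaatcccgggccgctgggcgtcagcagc

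The match lies 23 bases before the start in Asns and 193 bases before it in Chac1, counted to its first base. Of the genes with a match, Asns overlapped between genotypes at both ages, Chac1 overlapped at E14.5 but not at E16.5, and Trib3 overlapped at neither age, being lower in cKO. Sesn2 had no match in its window and overlapped at neither age, being higher in cKO. The hypoxia element core ACGTG was found in the windows of Ddit3, Ddit4 and Asns, and in 19.6% of all windows. The unfolded protein response element TGACGTGG, which contains ACGTG, was found in none of the members' windows and in 0.676% of all windows. CCAAT was found for Atf4, Atf5, Ddit3, Ddit4, Chac1 and Sesn2, and in 37.4% of all windows. A match is a description of letters, not a bound site.

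The wider pathway was described by lists of genes upstream and downstream of ATF4. Beside the calls in each list, 2.01% of all tested genes were called at E14.5 and 15.9% at E16.5. Among 8 eIF2alpha kinases and their regulators none was called at E14.5 (median log2 fold change 0.01) or at E16.5 (median -0.01). Eif2ak3, the PERK gene, had 0.18 (edgeR adjusted p = 0.337) at E14.5 and 0.19 (adjusted p = 0.128) at E16.5, and Eif2ak4, the GCN2 gene, had -0.25 (adjusted p = 0.110) at E16.5. Of 12 genes for eIF2, eIF2B and the eIF2alpha phosphatase 1 rose at E14.5, Eif2s3x (0.60, SE 0.0939, edgeR adjusted p = 0.0333), an X-linked gene known to escape X inactivation in mice, at an age where all cKO libraries were female. None of the 12 was called at E16.5, where the median was 0.04.

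Among the 12 amino acid and one-carbon enzymes, 1 fell at E14.5, and 4 rose and 2 fell at E16.5, with median log2 fold changes of 0.11 and 0.05. Of all tested genes 2.01% were called at E14.5 and 15.9% at E16.5, with medians of 0.03 and 0.02. Aldh1l2, the mitochondrial folate dehydrogenase, averaged 31.3 ± 0.414 CPM in E16.5 cKO and 86.7 ± 12.9 CPM in E16.5 WT (-1.48, SE 0.111, edgeR adjusted p = 0.00126). Cbs, the first enzyme of transsulfuration, averaged 4.40 ± 0.892 CPM in E16.5 cKO and 12.2 ± 4.10 CPM in E16.5 WT (-1.47, SE 0.264, adjusted p = 0.0101) and also fell at E14.5 (-1.12, SE 0.205, adjusted p = 0.0440). Among the risers at E16.5, Mthfd2 of the mitochondrial folate cycle averaged 15.4 ± 1.04 CPM in cKO and 10.2 ± 0.899 CPM in WT (0.59, SE 0.119, adjusted p = 0.0154), and the alanine transaminase gene Gpt2 rose by 0.36 (SE 0.0677, adjusted p = 0.0118). The enzymes moved in both directions, while Asns did not pass in either direction.

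Of 9 amino acid transporters none was called at E14.5 (median 0.25) and 2 rose at E16.5 (median 0.06), the glycine transporter Slc6a9 (0.81, SE 0.173, edgeR adjusted p = 0.0195) and the glutamine transporter Slc1a5 (0.78, SE 0.167, adjusted p = 0.0197). The 13 aminoacyl-tRNA synthetase targets, which include the tRNA exporter Xpot, had no call at E14.5 and 2 at E16.5, Xpot (0.35, SE 0.0705, edgeR adjusted p = 0.0158) and Tars (0.31, SE 0.0699, adjusted p = 0.0232), both higher, with medians of 0.11 and 0.12. At E16.5 the share of all tested genes called was 15.9%, near that of both lists. The medians over all genes were 0.03 and 0.02.

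Other ATF4 and CHOP targets moved both ways. Of 14 on the list 10 were tested at each age. None was called at E14.5, while 1 rose and 4 fell at E16.5, with medians of -0.22 and -0.23. Of all tested genes 15.9% were called at E16.5, and their medians were 0.03 and 0.02. Vldlr, a reelin receptor gene, averaged 69.0 ± 2.49 CPM in E16.5 cKO and 122 ± 6.11 CPM in E16.5 WT (-0.83, SE 0.0677, edgeR adjusted p = 0.00126). Sqstm1 (p62), an autophagy receptor, had -0.51 (SE 0.0746, adjusted p = 0.00501), Ndrg1 -1.08 (SE 0.163, adjusted p = 0.00545) and Stc2 -1.24 (SE 0.241, adjusted p = 0.0138). The riser was Eif4ebp1, the translation repressor 4E-BP1 (0.95, SE 0.259, edgeR adjusted p = 0.0443), at 1.71 to 2.18 CPM in E16.5 cKO and 0.929 to 1.13 CPM in E16.5 WT.

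The other arms of the unfolded protein response were read from 19 endoplasmic reticulum chaperones and regulators, none called at E14.5 and 1 higher at E16.5, Sdf2l1 (1.22, SE 0.150, edgeR adjusted p = 0.00291), an endoplasmic reticulum chaperone component at 10.9 ± 1.10 CPM in E16.5 cKO and 4.63 ± 0.466 CPM in E16.5 WT. Hspa5 (BiP), the main chaperone, had 0.07 (adjusted p = 0.797) at E14.5 and 0.17 (adjusted p = 0.407) at E16.5. The medians of the 19 were 0.06 at E14.5 and 0.14 at E16.5, against 0.03 and 0.02 over all genes tested.

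**Figure D4:**
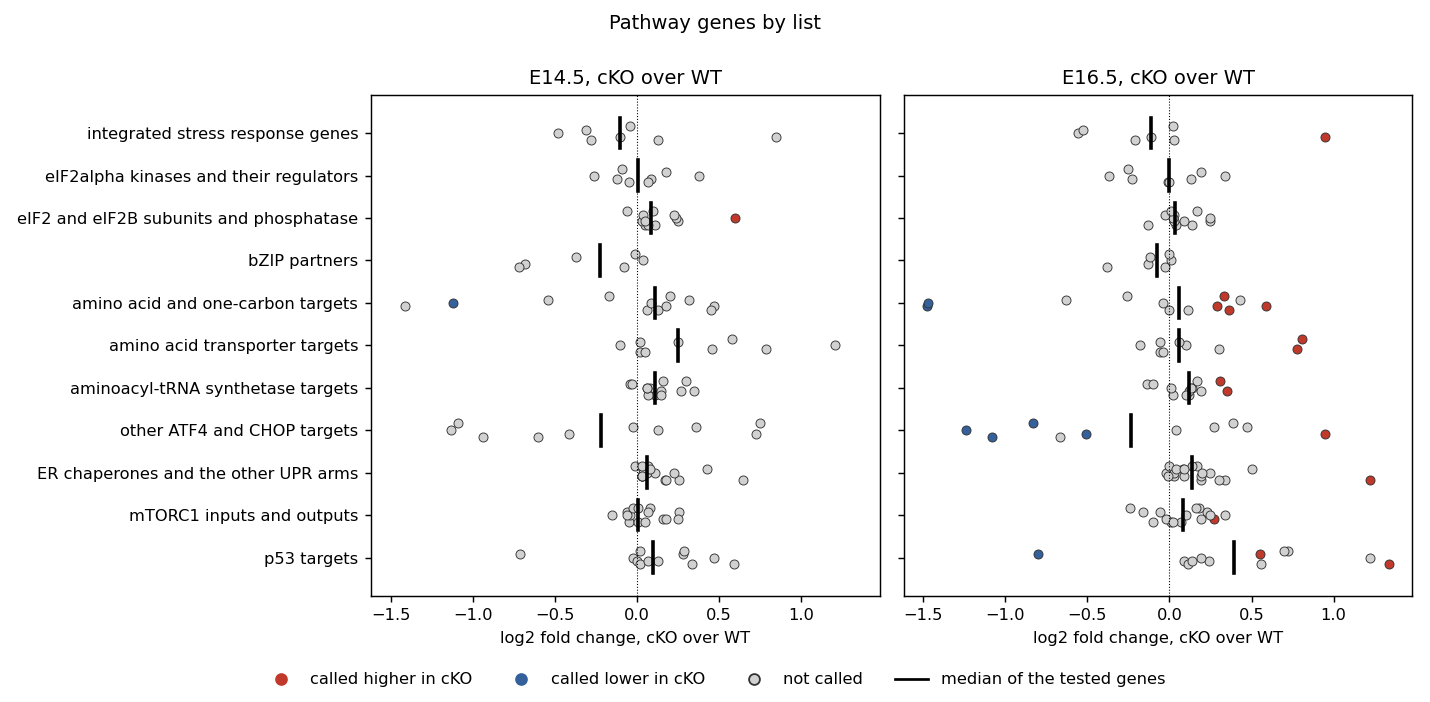
Log2 fold change in cKO over WT of every tested gene of the pathway lists at E14.5 (left) and E16.5 (right), red where called higher, blue where called lower and grey where not called, with a black bar at the list's median. The medians of the lists drawn lie between -0.23 and 0.39, and the calls at E16.5 run from -1.48 (Aldh1l2) to 1.34 (Eda2r).

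Whether the effect of genotype differed between ages was tested as an interaction over 12 libraries. No member was called, nor any of the 15338 genes (0%). For all genes 318 had an unadjusted p under 0.05 in edgeR and DESeq2 called 0. No member had an unadjusted p under 0.05. The difference of log2 fold changes, E16.5 minus E14.5, was 0.11 for Sesn2 (interval -0.47 to 0.70), -0.06 for Atf5 (interval -0.56 to 0.44), 0.01 for Atf4 (interval -0.23 to 0.26) and -0.21 for Chac1 (interval -1.14 to 0.72). These intervals leave room for sizeable differences.

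The genotype effect averaged over both ages was added after the single ages had been seen, and it uses the same libraries. It called 2 of the 7 tested members, against 4127 of 15338 genes (26.9%), a share close to that of all genes. Sesn2 rose by 0.90 (SE 0.135, interval 0.60 to 1.19, edgeR adjusted p = 0.000703) and Atf5 fell, with -0.52 (SE 0.114, interval -0.77 to -0.27, adjusted p = 0.00631). Atf5 did not pass with embryo sex as a term (-0.47, edgeR adjusted p = 0.0588), while Sesn2 did (0.85, adjusted p = 0.00847). Ddit4 was at -0.25 (adjusted p = 0.0931), Atf4 at -0.11 (adjusted p = 0.173), Chac1 at -0.42 (adjusted p = 0.162), Asns at 0.08 (adjusted p = 0.542) and Ddit3 at -0.01 (adjusted p = 0.960).

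Between ages in WT cortex, 1 of the 7 tested members was called, against 330 of 15338 genes (2.15%). Ddit4 was at 34.9 to 37.7 CPM in E16.5 WT and 47.0 to 69.5 CPM in E14.5 WT, with no overlap, and fell with age by 0.68 on the log2 scale (SE 0.143, interval -0.99 to -0.36, edgeR adjusted p = 0.0406). The call was lost when any of 5 WT libraries, or cKO C at E14.5 or cKO B at E16.5, was left out, with log2 fold changes from -0.81 to -0.52, and with embryo sex as a term (-0.67, edgeR adjusted p = 0.0892). It was kept without E14.5 WT B (-0.67, adjusted p = 0.0291). Atf4 had -0.24 (SE 0.0785, adjusted p = 0.0868), Atf5 -0.38 (SE 0.159, adjusted p = 0.151) and Sesn2 -0.27 (SE 0.195, adjusted p = 0.389). Age coincides with the set of title numbers, so any batch that follows them cannot be told apart from age.

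Across the 12 libraries, the genes whose log2 CPM was most like that of Sesn2 were Npm2 (Pearson r = 0.971), Fancm (0.969) and Heatr5a (0.967), among 12626 genes of at least 1 CPM on average. For Atf5 they were Tsen34 (0.970), Pgpep1 (0.957) and Car14 (0.955), for Atf4 Eif4a1 (0.934), Sall2 (0.930) and Cdca7 (0.928), and for Ddit4 Hs3st1 (0.929), Zfhx3 (0.912) and Dynll1 (0.906). Ddit3, Chac1 and Asns had nearest genes at lower r, namely Snora23 (0.843), Dhrs11 (0.907) and Nabp1 (0.790). Libraries here share genotype and age, so these values describe group levels as well as variation within groups. They were also picked as the highest of 12626 genes over 12 libraries, which by itself favours a high r. On deviations from the group means Sesn2 had other nearest genes, namely Supt3 (0.973), Mtf1 (0.947) and Pigv (0.929). After group means were removed, the members did not vary as a block. The r of deviations was 0.501 between Atf4 and Atf5, 0.532 between Atf4 and Chac1, -0.587 between Atf4 and Ddit3 and -0.673 between Atf5 and Asns, and the other pairs lay between -0.401 and 0.537. With 12 libraries and as many as 21 pairs, these are descriptions only.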

How the data were processed

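RNA was extracted from dorsal cortex with TRIzol, per the labels' protocols. Per the submitters' processing notes, STAR 2.5.2b was the aligner and mm10 the genome. The authors deposited raw counts of fragments per gene. Per the file headers, featureCounts 1.5.2 took RefSeq exons, the reverse strand (setting 2), pairs aligned at both ends and not chimeric, and a minimum overlap of 25 bases. Strand was used, so antisense genes were counted apart. Tables of log2 fold changes (WT over KO) and p-values, raw and adjusted, were also deposited. The submitters' processing notes name DESeq2 1.14.1. An adjusted p listed as NA was left as NA. In those tables, 12 columns of per-sample values were not used.

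Counts were fitted with edgeR 4.0.16 in R 4.3.3 (TMM, filterByExpr, robust quasi-likelihood F test), each age alone for genotype and 12 libraries in 1 fit for the age comparisons, with Benjamini-Hochberg adjustment over all genes tested and a threshold of 0.05. CPM uses the TMM sizes of all 12 libraries. DESeq2 1.42.0 was an alternative. The script was tested on simulated data. The exact counting intervals used scipy 1.17.1, and the exact permutation test of Trib3 went through all 400 relabellings. The members and lists were chosen with earlier results of these data known. The genes named are the members, Ash2l, the paralogs, from each list up to 4 called or up to 2 with the smallest p, and for each member the nearest genes by Pearson r; Hspa5 and Eif4ebp1 were named after their values were seen.

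Title numbers are shared by a cKO and a WT library, and the labels do not say what they mark. Deviations of same-number libraries from their group means had r of 0.281, 0.210 and 0.112 at E16.5, taken as paired, and 0.272, 0.304 and -0.00218 at E14.5, taken as not paired. These values overlap between ages, so they do not set the ages clearly apart. The main fits had no block at either age, so their E16.5 p-values leave the pairing out. Fits with the title number as a block were alternatives. No 2 libraries of a group agreed within sampling noise (chi-square per degree of freedom 9.51 to 51.5). The ribosomal RNA precursor gene Rn45s took 2.28 to 6.11% of counts. Promoter sequences are from RefSeq.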

Additional observations from a re-analysis of the deposited data

How the results depend on the processing

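At E14.5 no member was called when any library was left out, and 1 was (Sesn2) with DESeq2, with 12 libraries in 1 fit and with the replicate block. At E16.5 the count of members called was 1, between 0 and 1 when a library was left out, 0 with embryo sex in the 6 libraries, and 2 with DESeq2, 12 libraries or the replicate block. Over all genes DESeq2 called 2778 of 16134 there, the 12 libraries 1881 of 15338 and the replicate block 4790 of 14865. Embryo sex in the 6 libraries gave 1618 of 14865, and leaving out a library gave 987 to 2855 genes. In WT between ages the count of members called was 1, between 0 and 1 when a library was left out and 0 with embryo sex. For the mean of both ages it was 2, between 2 and 3 when a library was left out (the added gene Ddit4, also called with the replicate block, -0.24), and 1 with embryo sex. Over all genes that block called 5248 of 15338 for the mean. Leaving out a library gave from 3180 of 15572 to 4456 of 15618 genes. The replicate block gave Sesn2 0.85 at E14.5 (edgeR adjusted p = 0.0469) and changed no other call of a member at E14.5.

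Sesn2 kept its direction under every alternative, with 0.75 to 0.88 at E14.5 and 0.77 to 1.10 at E16.5, as did Atf5, with -0.58 to -0.38 and -0.71 to -0.41. The values that changed sign were near 0 and not called. With a library left out, Ddit3 ranged from -0.15 to 0.08 at E14.5, -0.07 to 0.11 at E16.5, -0.14 to 0.08 in WT between ages and -0.07 to 0.05 in the mean of both ages, and Asns from -0.04 to 0.09 at E16.5. The age difference of the genotype effect then ranged from -0.06 to 0.05 for Atf4, -0.25 to 0.06 for Atf5, -0.07 to 0.16 for Ddit3, -0.08 to 0.22 for Ddit4, -0.19 to 0.03 for Asns and -0.08 to 0.25 for Sesn2. For Atf4 it was -0.02 with RLE size factors or DESeq2 and -0.03 without the filter. With embryo sex Ddit3 was at 0.18 at E14.5, -0.15 for the age difference, 0.03 in WT between ages and 0.10 in the mean, where library totals alone gave 0.02. The cause was not tested. In the fits of 12 libraries the embryo sex term came from the E16.5 libraries alone.

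Calls over all genes at E14.5 were 297, but 1194 with DESeq2, 1336 with 12 libraries, 1279 with the replicate block, 128 with embryo sex, 621 without WT B and cKO A, 5 without WT C or cKO C, 41 without WT B or cKO B, and 66 without WT A. Ash2l did not pass at E14.5 without WT C (adjusted p = 0.0885) or cKO C (adjusted p = 0.108). At E16.5 they were 2358, but 4790 with the replicate block, 1569 with embryo sex in 12 libraries, 987 without WT B, 995 without cKO B and 1127 without WT A. In WT between ages they were 330, but 1961 with DESeq2, 1586 with the 6 WT libraries, 10 with embryo sex and 1 to 2216 when a library was left out. For the mean they were 4127 and 2338 with embryo sex. Trib3 and Chac1 are limited by their counts.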

Other observations

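Ddit4 is also known as a target of hypoxia and glucocorticoid signalling, and lists for both were read beside it. Of all tested genes 2.01% were called at E14.5 and 15.9% at E16.5, with medians of 0.03 and 0.02. Tsc22d3 (GILZ), induced by glucocorticoids, fell at both ages, with log2 fold changes of -0.80 (SE 0.135, edgeR adjusted p = 0.0377) at E14.5 and -0.76 (SE 0.120, adjusted p = 0.00636) at E16.5, and it was the 1 gene called among 6 glucocorticoid genes, whose medians were -0.41 and -0.07. Of 11 hypoxia genes 10 were tested. None was called at E14.5 (median 0.10) and 2 rose at E16.5 (median 0.25), the pyruvate dehydrogenase kinase gene Pdk1 (0.39, SE 0.0659, edgeR adjusted p = 0.00813) and the collagen prolyl hydroxylase gene P4ha1 (0.33, SE 0.0785, adjusted p = 0.0272), while Ddit4 was at -0.28 and -0.21 without a call. Of 12 immediate early and heat shock genes 9 were tested with no call at either age, and Jun had 0.50 (adjusted p = 0.148) at E14.5 and 0.54 (adjusted p = 0.0659) at E16.5.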
